A study of Mus musculus with 4 samples.

Results

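The genes described here are 3 cytokines of the interleukin-6 family (Il6, Osm and Lif), the 2 receptor chains for interleukin-6 (Il6ra and Il6st) and the transcription factor that these receptors activate (Stat3), measured in mouse helper T cells. They were taken by symbol: all probe sets whose platform annotation gave 1 of these 6 symbols alone, which were 14 probe sets of 45037 outside the array's own controls, for 6 genes of 18193. Total RNA was measured from CD4+ T cells that had been sorted as naive cells from mouse spleen and lymph nodes, on 1 Affymetrix array in each of 4 groups. The Th1 cultures, given interleukin-12 and anti-interleukin-4, held wild type C57BL/6J cells and STAT4-deficient cells of the strain labelled C57BL6-STAT4<tm1>. The Th2 cultures, given interleukin-4 and anti-interferon gamma, held wild type C57BL/6J cells and STAT6-deficient cells labelled B6.129S2©-STAT6<tm1Gru>/J. All 4 were activated through CD3 and CD28 for 3 days, kept in interleukin-2 with the polarizing cytokine for 4 days, and restimulated for 2 h on day 7. No culture received interleukin-6 or any other cytokine of this family by the labels. Age, sex, the number of mice and any pooling are not given, and the allele is carried by every cell of the deficient mice rather than by T cells alone, as far as the strain names say.

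Interleukin-6 binds its own receptor chain, encoded by Il6ra, and the pair then joins gp130, the signalling chain encoded by Il6st. Oncostatin M (Osm) and leukaemia inhibitory factor (Lif) also signal through gp130, each with a receptor chain of its own. Kinases of the JAK family on these chains activate STAT3, and SOCS3 shuts the signal down at gp130. In helper T cells this pathway is known for driving Th17 and follicular helper programs, and interleukin-6 is itself a known product of Th2 cells.

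The comparisons asked what each STAT contributes under the condition in which it acts: STAT4 in Th1 cells and STAT6 in Th2 cells. Each group has a single array, so the spread between replicates is unknown and nothing could be tested; every difference describes these arrays. Values are log2 expression per probe set. A gene was called higher or lower where its brightest probe set differed by at least 1 (2-fold) and reached the level minimum of 5.82, the median of all probe sets on the 4 arrays, in the brighter array. STAT4 loss and STAT6 loss share no array, while the comparisons of the wild types and of the deficient cells use the same 4 arrays again. On the STAT6-deficient array the 3' signal of the beta-actin control exceeded the 5' signal by 2.08, against 0.32 to 0.85 on the others; the part of this in the STAT6 loss values below was not tested. Loss of STAT4 went with 9.20 against 11.45 for the 1 Stat4 probe set, and loss of STAT6 with 10.92 against 10.93 for the main Stat6 probe set. Whether these probes lie in the deleted parts is not known here, so they check nothing about the genotype. The median over all probe sets ran from 5.63 to 6.01 on the 4 arrays. Of the 8 T cell markers measured, all 8 reached the level minimum on every array.

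Of the 6 genes, 1 of the 5 at the level minimum was called in STAT4 loss, Il6ra, which was higher. Among all genes at the minimum 11.5% were called there, 6.18% higher and 5.34% lower. In STAT6 loss 3 of 6 were called, Lif higher and Il6 and Stat3 lower, beside 26.5% of all genes, 7.01% higher and 19.5% lower. Between the wild types 3 of 6 were called, Il6 and Osm higher in Th2 cells and Il6st lower, beside 33.5% of all genes, 25.4% higher in Th2 and 8.14% lower. Between the deficient cells 1 of 5 was called, Il6ra, which was lower in Th2 cells, beside 22.9% of all genes, 10.3% higher in Th2 and 12.6% lower. The median over the 6 genes was -0.67 in STAT4 loss and -0.66 in STAT6 loss, where the median over all genes was 0.17 and -0.19. With 6 genes these shares are coarse. The genes did not move as a block, since each loss held differences in both directions.

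**Figure D1:**
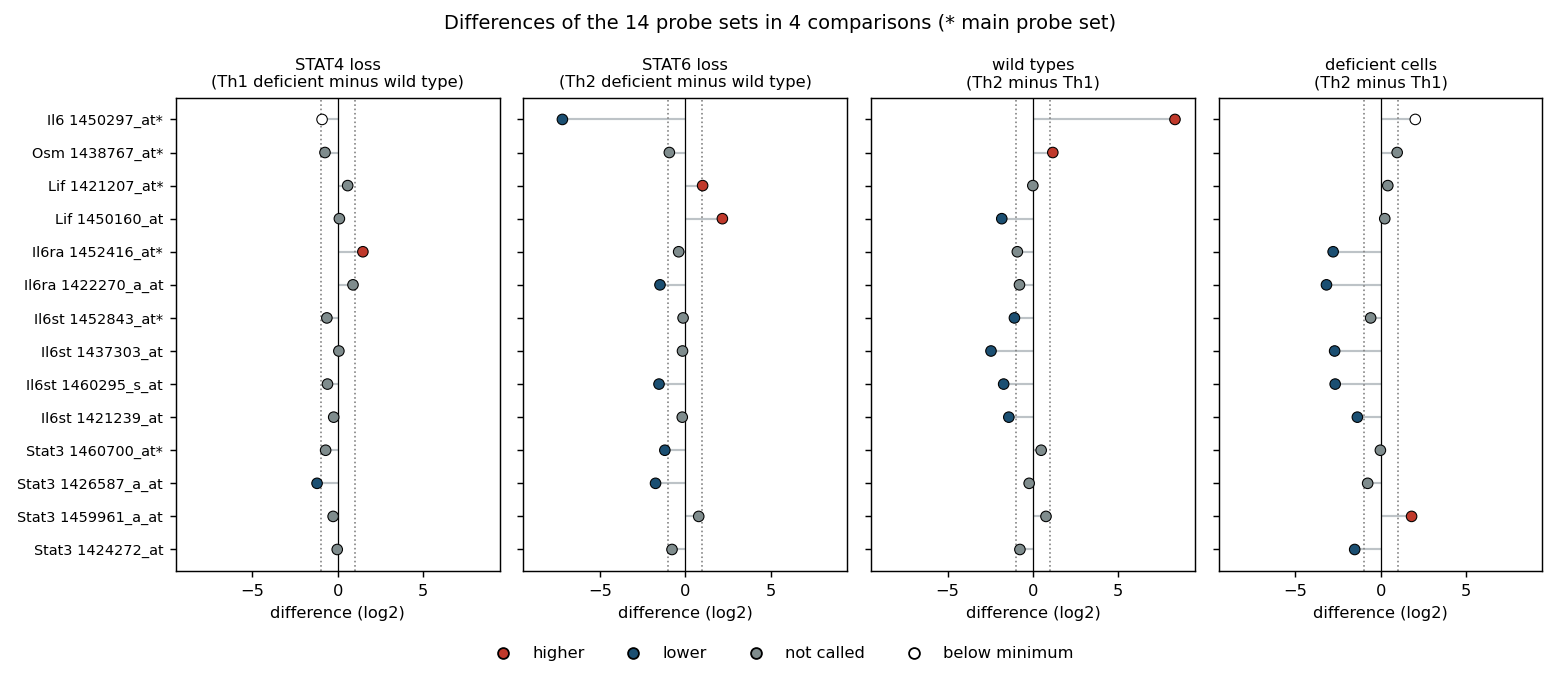
Log2 differences of the 14 probe sets (rows, with the main probe set of each gene starred) in 4 comparisons (panels); dotted lines mark 2-fold, and colours give the call. Il6 reaches -7.21 in STAT6 loss and 8.34 between the wild types, while the other 13 probe sets stay between -3.17 and 2.18.

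Il6 was the cytokine gene of the family with the widest range. Its 1 probe set read 12.63 in wild type Th2 cells, 5.42 in STAT6-deficient Th2 cells, 4.29 in wild type Th1 cells and 3.38 in STAT4-deficient Th1 cells. The wild type Th2 array alone was above the level minimum, above 98.6% of that array's probe sets. The other 3 arrays lay below the minimum, above 46.2% of the probe sets in STAT6-deficient Th2, 21.7% in wild type Th1 and 4.55% in STAT4-deficient Th1 cells. The deposited values thus differed 148-fold between wild type Th2 and STAT6-deficient cells and 323-fold between the wild types. With the dim arrays set to the level minimum, Il6 was at least 112-fold higher in wild type Th2 than in STAT6-deficient Th2 or wild type Th1 cells. Values below the minimum have no order here, so the -0.92 of STAT4 loss and the 2.04 between the deficient cells were not called. Over the 4 other scalings of the arrays the difference ran from -7.33 to -6.85 in STAT6 loss and from 8.19 to 8.71 between the wild types.

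**Figure D2:**
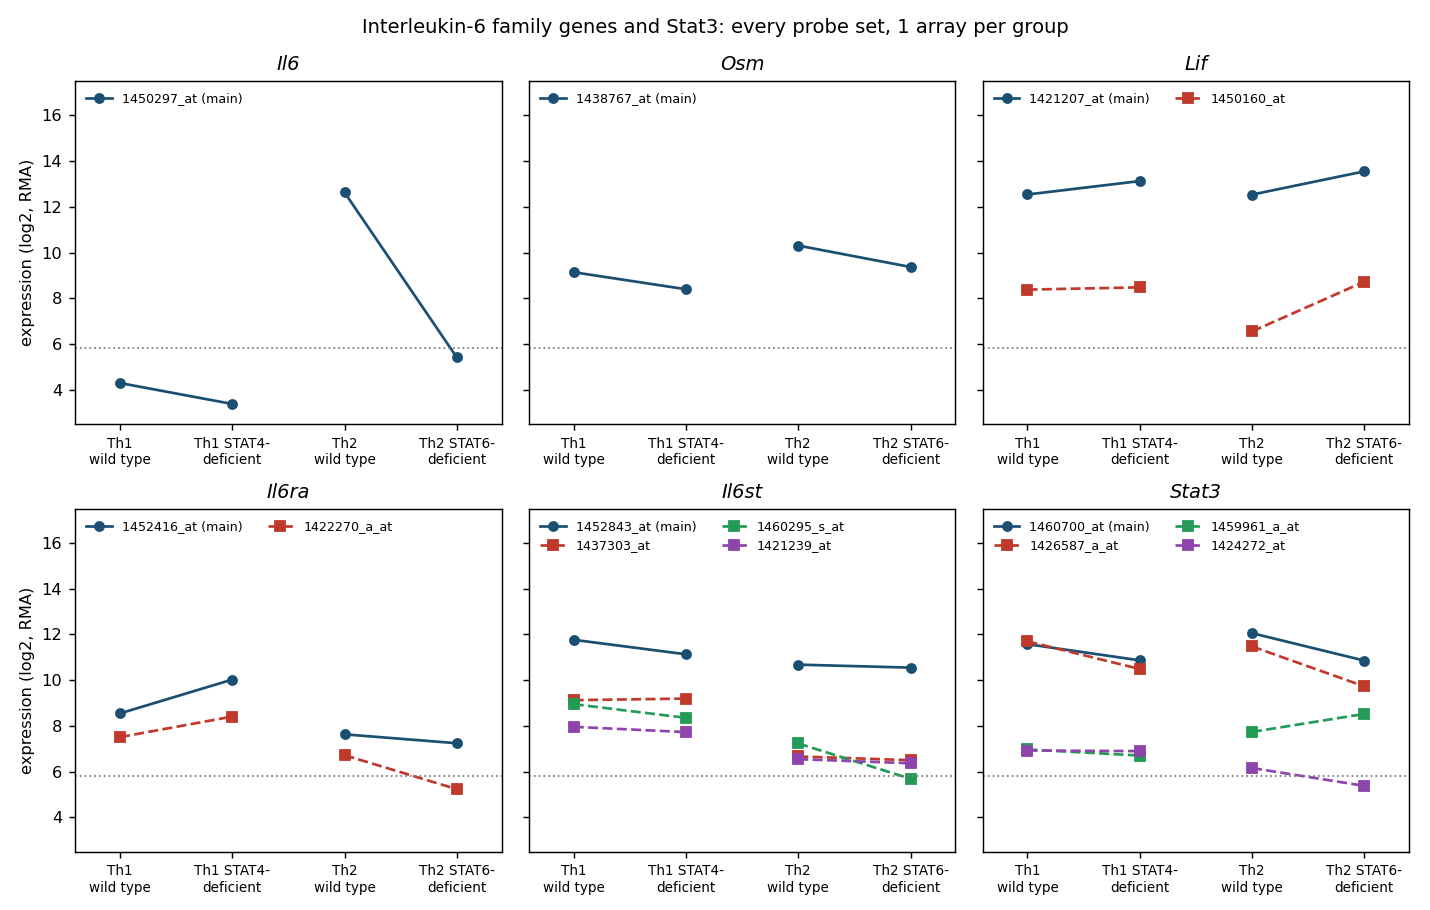
Expression (log2) of each probe set of the 6 genes in the 4 arrays; lines join wild type and deficient cells of 1 culture condition, the main probe set has a solid line, and the dotted line marks the level minimum of 5.82. Il6 stands above that minimum on the wild type Th2 array alone, and the main Stat3, Lif, Osm and Il6st probe sets stand above it on all 4.

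The bases before the start of Il6 are shown because this gene carries the largest difference, with those of Lif, the cytokine gene that was higher without STAT6, for contrast. Both are the 250 bases before the annotated start, 5' to 3', from RefSeq on GRCm38.p6, on the plus strand at chr5:30012864-30013113 for Il6 and chr11:4257318-4257567 for Lif. Capitals mark matches to motifs of factors known to act on Il6, searched on both strands.
Il6: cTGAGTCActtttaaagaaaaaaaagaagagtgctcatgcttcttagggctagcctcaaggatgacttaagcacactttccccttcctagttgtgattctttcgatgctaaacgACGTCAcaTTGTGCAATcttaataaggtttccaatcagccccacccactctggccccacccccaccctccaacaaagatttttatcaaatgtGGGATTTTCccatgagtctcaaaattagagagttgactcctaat
Lif: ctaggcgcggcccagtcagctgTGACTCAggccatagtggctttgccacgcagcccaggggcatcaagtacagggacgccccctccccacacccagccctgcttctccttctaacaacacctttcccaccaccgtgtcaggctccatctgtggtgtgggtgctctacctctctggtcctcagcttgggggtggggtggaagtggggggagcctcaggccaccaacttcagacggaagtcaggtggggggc

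In the Il6 window the capitals are, from the far end, an AP-1 motif (TGANTCA) at 249 to 243 bases before the start, the CRE core (TGACGT, on the minus strand) at 136 to 131, a C/EBP motif (TTGNGCAAT) at 128 to 120 and an NF-kB motif (GGGANTTTC) at 44 to 36. None of these matches overlapped. Of 32851 mouse promoters of the same length, 6.75% held the AP-1 letters, 6.47% the CRE core, 0.539% the C/EBP letters and 0.941% the NF-kB letters. The Lif window held the AP-1 letters at 228 to 222 bases before the start and none of the other motifs. The STAT letters TTCNNNGAA, in 7.02% of all promoters, and the form with 4 open bases that STAT6 is known to prefer, in 5.85%, were in neither window. They were not in those of Il6ra, Il6st or Stat3 either, which also lacked the other 4 motifs. RefSeq promoters were matched for 5 of the 6 genes. These are matches of letters in a short window and say nothing about binding.

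Cells other than T cells can also make interleukin-6, so markers of those that a sorted culture could still hold are given beside Il6. In bulk RNA fewer cells of a type and less RNA per cell cannot be told apart. Of 8 mast cell and basophil markers measured, 2 reached the level minimum in wild type Th2 cells, Cpa3 and Gata2. The summed level of that list ran from 8.40 in STAT6-deficient Th2 to 9.27 in wild type Th2 cells. Cpa3, a mast cell protease gene, was higher in wild type than in deficient cells of each culture condition. It read 8.64 in wild type Th2, 4.90 in STAT6-deficient Th2, 6.96 in wild type Th1 and 5.63 in STAT4-deficient Th1 cells. Gata2 went the other way in each condition. It read 5.97 in wild type Th2, 6.84 in STAT6-deficient Th2, 6.24 in wild type Th1 and 6.72 in STAT4-deficient Th1 cells. The receptor genes of this list, Kit, Fcer1a and Ms4a2, were below the minimum in wild type Th2 cells at 3.95, 3.36 and 4.00. Kit read 6.72 in wild type Th1, 6.14 in STAT4-deficient Th1 and 5.69 in STAT6-deficient Th2 cells. Of 7 myeloid and dendritic markers, 4 reached it in wild type Th2 and 2 in STAT6-deficient cells, with summed levels of 9.53 and 8.38. Csf1r read 7.07 in wild type Th2 and 7.06 in STAT6-deficient cells, with -1.23 for the lowest of its 3 probe sets. Adgre1, a macrophage marker, read 8.26 and 5.92 in these, and Itgax and Fcgr3 were at -0.94 and -0.85 in STAT6 loss with dim values set to the level minimum, while Lyz2, Cd14 and Itgam were below the minimum in wild type Th2 cells at 4.88, 5.38 and 4.10. Of 4 B cell markers 2 reached it in wild type Th2 cells, and of 6 fibroblast and endothelial markers 1 did, Pecam1, which was lower by 1.74 in the deficient cells. Of 3 CD8 T and NK cell markers 2 reached the level minimum. Cd8b1 was lower by 2.07 in STAT6 loss, and Cd8a was at -0.34, with -0.34 to 0.66 over its 5 probe sets. The part of such cells in the Il6 values was not tested.

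Osm, which encodes oncostatin M, was highest on the same array as Il6 but over a range of less than 2. Its 1 probe set read 10.30 in wild type Th2, 9.37 in STAT6-deficient Th2, 9.14 in wild type Th1 and 8.39 in STAT4-deficient Th1 cells. It was called between the wild types, 2.24-fold higher in Th2 cells. Under quantile normalization and cyclic loess that difference was 0.67 and 0.66, short of the limit. Without STAT4 the difference was -0.74 and without STAT6 -0.94, so neither loss was called.

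Lif, which encodes leukaemia inhibitory factor, was bright in every group. Its main probe set read 13.55 in STAT6-deficient Th2, 13.12 in STAT4-deficient Th1, 12.54 in wild type Th1 and 12.53 in wild type Th2 cells. The wild types differed by -0.01, and Lif was 2.02-fold higher without STAT6. That call lies at the limit and was lost at 0.90 when the arrays were scaled by their hybridization controls. A second probe set, designed on the same target sequence, read 8.38 in wild type Th1, 8.48 in STAT4-deficient Th1, 6.55 in wild type Th2 and 8.72 in STAT6-deficient Th2 cells. By that probe set Lif was 4.52-fold higher without STAT6 and 3.55-fold lower in wild type Th2 than in wild type Th1 cells. Both probe sets put Lif higher without STAT6, while they disagreed on whether the wild types differ. Osm and Lif lie next to each other on chromosome 11. Their main probe sets differed in direction in both losses, with -0.74 and 0.59 in STAT4 loss and -0.94 and 1.02 in STAT6 loss. Of these values only that of Lif in STAT6 loss was called. In STAT4 loss the second Lif probe set gave 0.10, with -0.14 to 0.48 over the other scalings, so the direction of Lif there is not settled.

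Il6ra, the gene of the chain that binds interleukin-6, was the gene of the 6 that was called in STAT4 loss. Its main probe set read 10.03 in STAT4-deficient Th1, 8.55 in wild type Th1, 7.63 in wild type Th2 and 7.24 in STAT6-deficient Th2 cells. Il6ra was thus 2.79-fold higher without STAT4, and this difference ran from 1.24 to 1.86 over the other scalings. Between the deficient cells Il6ra was 6.89-fold lower in Th2, with -3.03 to -2.41 over the scalings. The second probe set gave the same order, at 8.41, 7.51, 6.72 and 5.24, with 0.90 in STAT4 loss and -3.17 between the deficient cells. It read -1.49 in STAT6 loss, where the main probe set read -0.39. With the dim STAT6-deficient array set to the level minimum this was -0.90, short of the limit. Between the wild types the main probe set was at -0.92, not called, and passed the limit at -1.43 under quantile normalization and -1.47 under cyclic loess. Both probe sets thus placed STAT4-deficient Th1 cells highest and STAT6-deficient Th2 cells lowest.

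Il6st, the gene of gp130, was lower in wild type Th2 than in wild type Th1 cells by all 4 of its probe sets. The main probe set read 11.77 in wild type Th1, 11.13 in STAT4-deficient Th1, 10.68 in wild type Th2 and 10.55 in STAT6-deficient Th2 cells. Between the wild types it was 2.12-fold lower in Th2, and short of the limit at -0.71 when scaled by hybridization controls. The other 3 probe sets gave -2.46, -1.72 and -1.42 for the wild types, so the main probe set showed the smallest difference. Between the deficient cells those 3 were called at -2.70, -2.66 and -1.36 and the main probe set was not, at -0.58. STAT4 loss ran from -0.63 to 0.07 over the 4 probe sets, and STAT6 loss from -0.18 to -0.13 over 3 of them. The remaining probe set gave -1.54 in STAT6 loss, from 7.23 to 5.69, and -1.42 with the dim array at the level minimum. By all but the main probe set, both differences between the culture conditions were thus larger than both losses.

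Stat3, the transcription factor gene downstream of gp130, was lower without STAT6 by its 2 brightest probe sets. The main probe set read 12.06 in wild type Th2, 11.58 in wild type Th1, 10.87 in STAT4-deficient Th1 and 10.86 in STAT6-deficient Th2 cells. It was 2.30-fold lower in STAT6 loss and at -0.71 in STAT4 loss, so both deficient arrays lay below both wild types. The next brightest probe set read 11.70 in wild type Th1, 11.48 in wild type Th2, 10.49 in STAT4-deficient Th1 and 9.73 in STAT6-deficient Th2 cells. By it Stat3 was lower in both losses, by 1.21 without STAT4 and by 1.75 without STAT6. The 2 dimmer probe sets did not follow. The first of them read 6.97, 6.71, 7.74 and 8.53 in wild type Th1, STAT4-deficient Th1, wild type Th2 and STAT6-deficient Th2 cells, a difference of 0.79 in STAT6 loss. The other read 6.93, 6.90, 6.16 and 5.38 in that order, a difference of -0.78 in STAT6 loss. With the median of the 4 probe sets in place of the main one, STAT6 loss gave -0.48 and was not called. The position of these probe sets along the transcript is not given, and the 3' excess of the control transcripts on the STAT6-deficient array stands beside this disagreement; its part was not tested.

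Other cytokines of the family that signal through gp130 or a related chain were measured for 5 of 8 genes listed. In STAT4 loss 1 was higher, Il11, at 1.10, which 2 of the 4 other scalings kept and which was 0.70, short of the limit, with dim values set to the level minimum. In STAT6 loss 1 was higher, Clcf1, which encodes cardiotrophin-like cytokine factor 1. Clcf1 read 8.14 in wild type Th1, 8.75 in STAT4-deficient Th1, 7.14 in wild type Th2 and 11.10 in STAT6-deficient Th2 cells. Its difference in STAT6 loss was 3.97, with 1.80 to 4.20 over its 3 probe sets. By the main probe sets this was larger than the 1.02 of Lif in the same direction. The other Lif probe set gave 2.18, within the range of Clcf1. Wild type Th2 cells had 2 of these genes higher than wild type Th1 cells, Il31 by 3.37 and Ebi3 by 1.85, and Clcf1 was lower at -1.01. Il31 encodes a Th2 cytokine that uses a gp130-like chain, and Ebi3 encodes a subunit of interleukin-27. Il31 read 12.25 in wild type Th2 and 11.39 in STAT6-deficient Th2 cells, and Ebi3 read 10.49 and 10.10, so neither was called in STAT6 loss. Il6 and Il31 were thus both higher in wild type Th2 than in wild type Th1 cells, and their differences in STAT6 loss were -7.21 and -0.87. Between the deficient cells 3 of 5 were higher in Th2 and 0 lower, Ebi3 at 2.45, Clcf1 at 2.35 and Il31 at 1.64. All 4 other scalings kept these calls. Clcf1 ran from 0.98 to 3.03 over its 3 probe sets there. The list's median was 1.64, beside -0.21 for all genes. Ctf1, for cardiotrophin 1, ran from 5.27 to 5.99 and was called in no comparison. Of all genes, 6.18% were higher in STAT4 loss and 7.01% in STAT6 loss. Between the wild types 25.4% of all genes were higher in Th2 and 8.14% lower. Between the deficient cells 10.3% were higher and 12.6% lower. Il27, Cntf and Ctf2 were not analysed here.

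Of 7 other receptor genes of the family listed, 5 were measured. In STAT4 loss 2 were higher, Lifr at 1.53 and Osmr at 1.16, which encode the partner chains of gp130 for Lif and Osm. Wild type Th1 cells were below the level minimum for both, and with dim values set to it the differences were 0.40 and 0.30, so neither call held. The lowest of 3 probe sets gave 0.10 for Lifr and -0.25 for Osmr. None was called in STAT6 loss. Il27ra, the interleukin-27 receptor, was higher at 1.38 in wild type Th2 than in wild type Th1 cells, and Cntfr, the receptor chain for ciliary neurotrophic factor, lower at -1.06; 2 of the 4 other scalings kept the first call and 3 the second. Osmr and Lifr were called lower in Th2 between the deficient cells, at -2.09 and -1.67, again against values below the minimum. Set to it, these were -0.30 and -0.40 and not called, and the highest of 3 probe sets gave 0.27 for Osmr and -0.26 for Lifr. Il31ra was called nowhere, with a main probe set between 5.97 and 6.59. Of all genes, 6.18% were higher in STAT4 loss, and 12.6% were lower in Th2 between the deficient cells. Between the wild types 25.4% of all genes were higher in Th2 and 8.14% lower.

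Among 8 kinases, adaptors and sheddases all were measured and none was called in STAT4 loss. Jak2 and Ptpn11, for a kinase on gp130 and the phosphatase SHP2, were within 0.47 in all comparisons by the main probe set. In STAT6 loss Adam10, for a protease that can shed the interleukin-6 receptor, was higher at 1.36, with -0.62 to 1.36 over its 4 probe sets. Jak1, for the main kinase of gp130, was lower at -1.10, with -2.02 to -0.81 over 3 probe sets, and 1 of the 4 other scalings kept that call. Tyk2 and Gab2 were higher in Th2 between the wild types at 1.25 and 1.11, each with another probe set in the opposite direction and each kept by 2 of the 4 other scalings. Jak1 was lower in Th2 between the deficient cells, at -1.83, with -4.97 to -1.78 over its 3 probe sets. Between the wild types the main Jak1 probe set was at -0.59, not called, and the lowest gave -2.90. Adam10 was higher between the deficient cells at 1.07, which 1 of the 4 other scalings kept. Another Adam10 probe set gave -1.89 there. Gab1 was below the level minimum on all 4 arrays, and Adam17 was called in no comparison by its main probe set. The lowest of 3 Adam17 probe sets gave -1.43 in STAT6 loss and -1.81 between the deficient cells. Of all genes, 7.01% were higher and 19.5% lower in STAT6 loss. Between the wild types 25.4% were higher in Th2, and between the deficient cells 10.3% were higher and 12.6% lower.

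Negative regulators of the pathway were measured for all 9 genes listed. Socs3, whose protein binds gp130 and blocks its kinases, was lower in both losses. It read 11.17 in wild type Th1, 8.42 in STAT4-deficient Th1, 11.77 in wild type Th2 and 9.17 in STAT6-deficient Th2 cells. The difference was -2.75 in STAT4 loss, with -2.75 to -1.62 over 3 probe sets, and -2.61 in STAT6 loss, with -2.65 to -2.58. Both wild types thus lay above both deficient arrays for Socs3, the same arrangement as for the 2 brightest Stat3 probe sets. Socs1, an inhibitor of several cytokine receptors, was lower at -2.12 in STAT6 loss; in STAT4 loss it differed by 0.16. Socs2 was also lower in STAT6 loss at -1.08, with -1.74 to 0.24 over 6 probe sets, and 1 of the 4 other scalings kept that call. Socs2 was higher in Th2 between the wild types at 1.95, with -0.16 to 1.95 over its probe sets. Socs1 was higher there at 1.13, which 2 of the 4 other scalings kept, and between the deficient cells Socs1 was lower at -1.16. Cish, Pias1, Pias3, Ptpn1, Ptpn2 and Ptpn6 were called in no comparison by the main probe set. Other probe sets passed 2-fold for Pias1, at 1.72 between the deficient cells, and for Ptpn2, at -1.24 in STAT6 loss. For Ptpn6 another gave -1.73 between the wild types. Of all genes, 5.34% were lower in STAT4 loss and 19.5% in STAT6 loss. Between the wild types 25.4% were higher in Th2, and between the deficient cells 12.6% were lower.

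Genes reported elsewhere as STAT3 targets were lower in both losses more often than higher. Of 22 listed, 19 were measured; in STAT4 loss 13 of 18 at the level minimum were lower and 0 higher, where 5.34% of all genes were lower and 6.18% higher. In STAT6 loss 10 of 19 were lower and 3 higher, where 19.5% of all genes were lower and 7.01% higher; with dim values at the minimum 9 were lower. The list's median was -1.43 in STAT4 loss and -1.26 in STAT6 loss, where all genes stood at 0.17 and -0.19, and over the other scalings 10 to 15 and 10 to 11 of its genes were lower. The list was chosen with earlier results of these data known, and several of its genes also answer to other STATs, so its count is no measure of STAT3 activity. The named genes lower in STAT4 loss were Il10 at -6.80, Socs3 at -2.75, and Il21 and Cebpd, which were below the level minimum without STAT4 and differed by -6.48 and -2.22 when set to it. Other probe sets gave -2.49 for Il21 and -0.21 for Cebpd. In STAT6 loss they were Il10 at -7.26, Il24 at -6.63, and Il21 and Prdm1, at -5.80 and -5.27 with dim values set to the minimum. Il10, Il21 and Il24 encode cytokines, and Prdm1 encodes the repressor Blimp-1. The genes higher in STAT6 loss were Rora at 3.72, with -0.64 to 4.45 over 9 probe sets, Bcl6 at 1.70, with -0.45 for its other probe set, and Myc at 1.18. Between the wild types 6 of 19 were higher in Th2 and 5 lower, beside 25.4% and 8.14% of all genes, with a median of -0.03. Between the deficient cells 5 of 17 were higher and 1 lower, beside 10.3% and 12.6% of all genes, with a median of 0.67. With dim values at the minimum 4 were higher there, and over the other scalings 4 to 10 were.

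**Figure D3:**
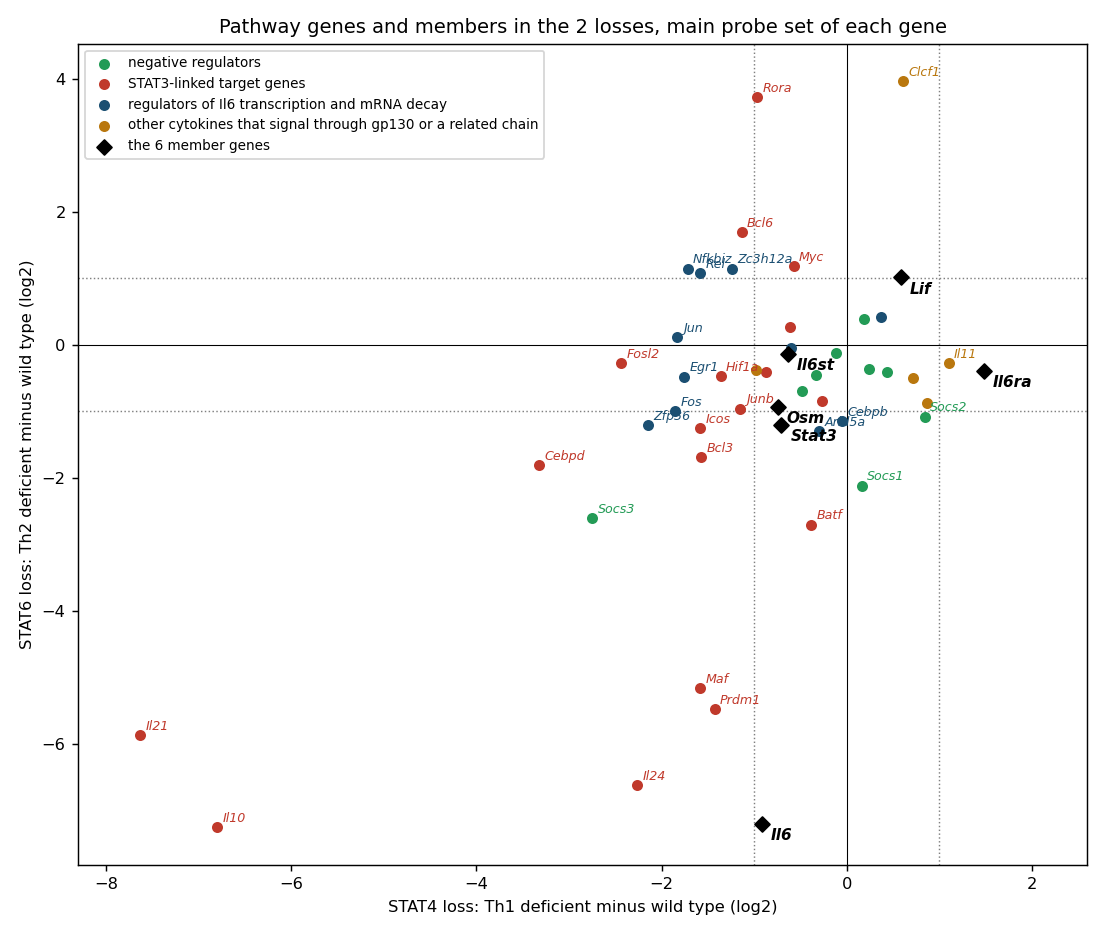
Log2 difference in STAT4 loss (horizontal) against that in STAT6 loss (vertical) for the main probe set of each gene of 4 lists and of the 6 family genes (diamonds); dotted lines mark 2-fold. Socs3 lies at -2.75 and -2.61, Il6 at -0.92 and -7.21, and Rel, Nfkbiz and Zc3h12a are below -1 in STAT4 loss and above 1 in STAT6 loss.

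Of 14 regulators of Il6 transcription and messenger RNA decay listed, 13 were measured. This list too was chosen with earlier results of these data known, and it shares genes such as Cebpd with the STAT3 target list. Its counts therefore only describe the genes listed. Cebpb was the 1 called higher in wild type Th2 than in wild type Th1 cells, as Il6 was. In STAT4 loss, where Il6 was below the minimum in both arrays, 9 of 13 were lower and 0 higher, beside 5.34% and 6.18% of all genes, and the median was -1.59 beside 0.17. Among them were Cebpd at -2.22 with its dim value at the level minimum, Zfp36 at -2.15, Fos at -1.85 and Jun at -1.83; Zfp36 encodes a protein that promotes messenger RNA decay and the others encode activators of transcription. In STAT6 loss, where Il6 was at -7.21, 4 were lower and 3 higher, beside 19.5% and 7.01% of all genes. The median was -0.48 beside -0.19, and over the other scalings 2 to 6 were lower and 2 to 3 higher. The lower ones were Arid5a at -1.30, Zfp36 at -1.21 and Cebpb at -1.15, the last 2 of which were each kept by 2 of the 4 other scalings. The remaining one, Cebpd, was at -0.89, short of the limit, with its dim value set to the level minimum, and its other probe set gave 0.25. Arid5a encodes a protein known to stabilize Il6 messenger RNA. The higher ones were Zc3h12a at 1.15, Nfkbiz at 1.14 and Rel at 1.08. The other Zc3h12a probe set gave 0.70, and the lowest of 3 Nfkbiz probe sets gave -0.07. Of these genes Zc3h12a encodes Regnase-1, a nuclease that degrades Il6 messenger RNA. Rel encodes an NF-kB subunit, and Nfkbiz a protein of the I-kappa-B family, which binds NF-kB. Between the wild types, where Il6 was higher in Th2 by 8.34, 7 of 13 were lower in Th2, beside 8.14% of all genes, led by Rel at -2.77, Jun at -2.72, Zfp36 at -2.21 and Zc3h12a at -2.06. Cebpb was higher at 1.56 and encodes a C/EBP protein first described at the Il6 promoter. Cebpb read 9.43 in wild type Th1, 9.38 in STAT4-deficient Th1, 10.99 in wild type Th2 and 9.84 in STAT6-deficient Th2 cells, with the wild type Th2 array highest as for Il6. Arid5a and Rela, the latter an NF-kB subunit gene, also read highest on that array, at 11.74 and 12.81. Rela was within 0.61 in all 4 comparisons. The part of any of these genes in the Il6 values was not tested. Between the deficient cells 1 of 12 was higher and 2 were lower, beside 10.3% and 12.6% of all genes, with a median of 0.18. Nfkb1 was not analysed here.

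Of the other STAT genes, 5 of 6 were measured. Stat4 was lower at -2.26 in STAT4 loss and at -2.49 in wild type Th2 against wild type Th1 cells. Stat5a and Stat2 were higher at 1.48 and 1.32 in Th2 between the deficient cells, where the main Stat3 probe set differed by -0.01. The other Stat5a probe set gave -1.57 and the other Stat2 probe set 0.38. Stat5b and Stat6 were called in no comparison by the main probe set. The other Stat6 probe set gave -1.50 between the deficient cells.

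Genes with a pattern like that of each family gene were found by the Euclidean distance between the 4 log2 values, each gene centred on its own mean, among 13146 genes. The distance is a description over 4 arrays and takes values below the level minimum as deposited. For Il6 only 1 gene lay within a distance of 1, Cyp11a1, at 0.96, which encodes the enzyme that starts steroid synthesis from cholesterol. Cyp11a1 read 13.46 in wild type Th2 cells and 5.07 to 5.77 in the other groups. Next were Rnf152 at 1.42, Il5 and Cxcl3 both at 1.45, and Il24 at 1.70. Il5 encodes the eosinophil growth factor of Th2 cells and Cxcl3 a chemokine for neutrophils. Il24 differed from Il6 in being above the level minimum on all 4 arrays. These 5 stayed among the 6 nearest under quantile normalization and cyclic loess; scalings by 1 constant per array leave these distances as they are. Around the other family genes many more lay as near, with 208 genes within 1 of Il6ra, 2684 of Osm, 3479 of Lif, 3631 of Il6st and 4038 of Stat3. The distance is not scaled to a gene's range, so these counts follow that range and do not compare how rare the patterns are. The range over the arrays was 9.25 for Il6, 2.78 for Il6ra and 1.02 to 1.91 for the main probe sets of the others.

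**Figure D4:**
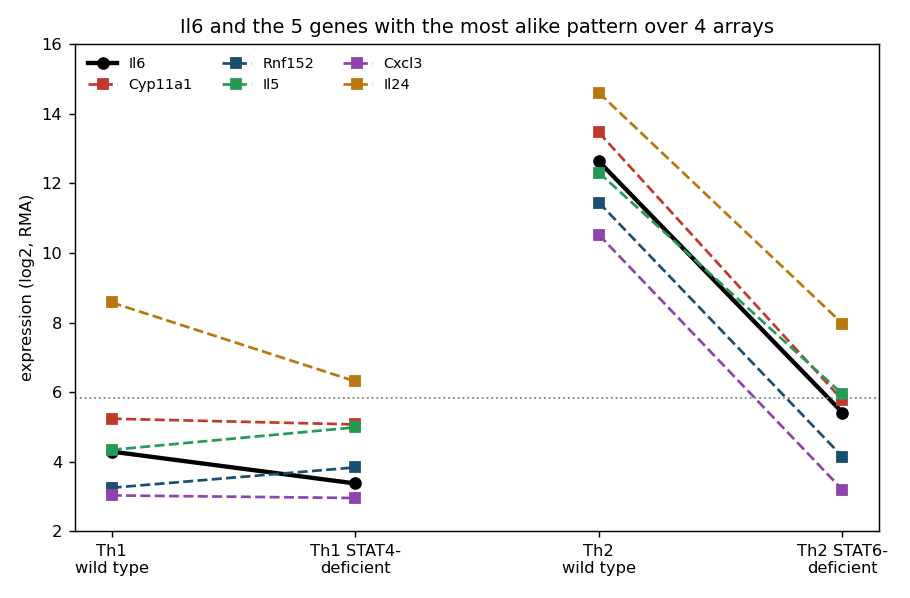
Expression (log2) in the 4 arrays of Il6 (solid) and the 5 genes with the smallest distance to its pattern (dashed); the dotted line marks the level minimum of 5.82. All 6 stand far above the minimum in wild type Th2 cells, from 10.52 for Cxcl3 to 14.60 for Il24, and Il24 alone is above it in both groups of Th1 cells.

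The nearest genes of the others were Trim41, Fanca and Tuba1a for Osm, at distances of 0.092 to 0.145, and Igtp, Ndufaf8 and Ssbp3 for Lif, at 0.054 to 0.099. Dmgdh, Mettl27 and Fstl1 were nearest to Il6ra, at 0.23 to 0.39. Prss29, Nutm1 and Cntfr were nearest to Il6st, at 0.079 to 0.100, and Dpm1, Bad and Me1 to Stat3, at 0.023 to 0.074. Under quantile normalization Trim41, Igtp and Mettl27 alone stayed among the 3 nearest. Prss29, for example, fell to rank 1410 for Il6st under quantile normalization, and Me1 to rank 1260 for Stat3.

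Along the chromosome, the genes beside Il6 did not share the size of its differences. Tyms, for thymidylate synthase, next to Il6 in the RefSeq order, was lower at -1.55 in STAT6 loss and higher in Th2 between the wild types, by 1.60 with the dim Th1 array set to the level minimum. Dnajb6 on the other side was called in neither, at -0.62 and 0.24. Ube3c, beyond Dnajb6, was at -0.38 in STAT6 loss, not called, and higher in Th2 between the wild types at 1.43. Beside Osm, Castor1 and Tbc1d10a were lower at -2.45 and -1.17 in STAT6 loss and higher at 1.69 and 1.43 in wild type Th2 cells; Osm itself stood at -0.94 and 1.17. On the other side of the pair, Hormad2 and Mtmr3 beside Lif were at -0.85 and -0.86 in STAT6 loss, against 1.02 for Lif. She, next to Il6ra, was also called higher in STAT4 loss, where Il6ra was at 1.48, but with its dim value set to the level minimum it was at 0.60. Atp8b2 on the other side of Il6ra was at 0.94, not called. Atp8b2 was lower at -1.58 in STAT6 loss and higher in Th2 between the wild types at 1.62. The main Il6ra probe set was at -0.39 and -0.92 in these. Map3k1, near Il6st, was lower at -2.33 in STAT6 loss, where the main Il6st probe set was at -0.13. Stat5a and Stat5b, the neighbours of Stat3, were called in STAT6 loss by neither main probe set, at 0.77 and 0.46, though the other Stat5a probe set gave -1.16, near the -1.20 of Stat3.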

How the data were processed

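Total RNA of 4 samples was hybridized to 1 array each. Values were made by the authors with RMA, per the submitters' processing notes, and deposited as log2 expression per probe set; the version, and whether the arrays were normalized together, are not given in the sources used here. Of 45101 probe sets 64 were controls. The platform annotation named 1 gene for 34945 of the others, several for 932 (not used) and none for 9160. Symbols were updated through RefSeq (GRCm38.p6), which matched 34741. A gene's main probe set is the one that was brightest on average across the arrays.

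Computed here, with Python 3.11.15 (numpy 2.4.6, pandas 2.3.3) and R 4.3.3 (limma 3.58.1): log2 differences, calls at 2-fold with the brighter array at 5.82 or more, the same calls over 18193 genes, and counts and medians over lists. There is no replicate, so no test was made, and the number of arrays limits the precision. Scripts were tested on simulated data. Alternatives were median centring, scaling by 18 hybridization controls, quantile normalization, cyclic loess, level minimums at the 25th and 75th percentile or none, dim values set to the minimum, the median of all probe sets and a 1.5-fold limit. The genes and lists were chosen with earlier results of these data known. The rule for named genes took all 6 family genes, all genes of the first 4 lists (cytokines, receptors, kinases and adaptors, negative regulators), up to 4 called genes with the largest difference in each other list and comparison, the nearest 5 genes to Il6 and 3 to the others, and the 2 on each side along the chromosome. Myc, Rela, Stat5b and Stat6 were named after their values were seen, as were Cebpb, Nfkbiz, Rel and Zc3h12a where the rule did not give them.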

Additional observations from a re-analysis of the deposited data

Results flagged for a closer look

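Some genes stood out because the losses moved them in opposite directions; the difference between the losses was not tested, and with 1 array per group it could not be. Il6ra was at 1.48 in STAT4 loss and -0.39 in STAT6 loss. Bcl6, for the transcription factor that drives follicular helper T cells, was at -1.14 and 1.70. Nfkbiz was at -1.72 and 1.14, Rel at -1.59 and 1.08, and Zc3h12a at -1.24 and 1.15. For Il6ra the second value is short of the 2-fold limit, and its other probe set gave 0.90 and -1.49. The other Bcl6 probe set gave -0.03 and -0.45.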

How the results depend on the processing

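No paired analysis was possible because each group has 1 array, and for the same reason no replicate could be left out. Over 10 alternatives, 221 of 240 values of the 24 differences (6 genes in 4 comparisons) kept their side of the limit, 5 lost a call, 14 gained one, and no called difference changed sign. Uncalled differences changed sign in 6 values: Il6st in STAT6 loss (0.0061 under median centring, 0.11 under quantile normalization and 0.054 under cyclic loess), Stat3 between the deficient cells (0.36 under median centring and 0.43 with the median of probe sets) and Lif between the wild types (0.37 under hybridization controls). Il6, Il6ra and Stat3 kept the calls of the main setting under all scalings. Calls were lost for Osm between the wild types under quantile normalization (0.67) and cyclic loess (0.66), for Lif in STAT6 loss (0.90) and Il6st between the wild types (-0.71) under hybridization controls, and for Stat3 in STAT6 loss with the median of probe sets (-0.48). Calls were gained for Il6ra between the wild types under quantile normalization (-1.43) and cyclic loess (-1.47), Osm in STAT6 loss under hybridization controls (-1.05), Osm between the deficient cells under median centring (1.35), Il6st there with the median of probe sets (-2.34), and Il6 there (2.04) with the minimum at the 25th percentile or none. The 1.5-fold limit added Osm (-0.74), Lif (0.59), Il6st (-0.63) and Stat3 (-0.71) in STAT4 loss, Osm in STAT6 loss (-0.94), Il6ra between the wild types (-0.92) and Osm between the deficient cells (0.97). The count in STAT4 loss thereby went from 1 to 5, while the share of all genes called there went from 11.5% to 31.8%. Between the deficient cells the count went from 1 to 2 under median centring, the minimum at the 25th percentile or none, the median of probe sets and the 1.5-fold limit. Scaling moved the median of all genes to between -0.07 and 0.55 in STAT4 loss, -0.30 and -0.02 in STAT6 loss, -0.04 and 0.47 between the wild types, and -0.34 and 0.16 between the deficient cells. The cause of these changes was not tested.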

Other observations

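The deposited values fall on few levels. The 45037 probe sets took 3295 to 3964 distinct values per array, and 95.7% to 96.4% of them shared their value with another probe set of the same array. For each of the 14 probe sets of the 6 genes, the largest gap to an adjacent level over the 4 arrays was taken. These largest gaps ran from 0.0017 to 0.051. The wild type arrays had 1467 distinct values in common, the Th1 wild type and Th2 STAT6-deficient arrays 5, and the other 4 pairs 0.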
